A study of Ovis aries with 4 samples.

Results

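RELN cells were the mammary cells that carried reelin transcripts and none, or almost none, of the transcripts that defined other cell classes. A barcode was taken as a RELN cell when at most 20% of its unique molecular identifiers (UMIs, each 1 counted transcript molecule) came from 13 mitochondrial genes, when it held at least 2 RELN UMIs, when CD3E, EPCAM, C1QA and EDNRA were all at 0, and when DCN was below 5. In all, 742 of 38886 kept cells (1.91%) met this rule. The cells were labelled lymphatic endothelium-like from RELN, F8 and IGFBP5. The cells were therefore chosen by their own counts of RELN and of the exclusion genes, and the levels of these genes are given as a description with no test.

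Single-cell RNA sequencing on the 10x droplet platform was run on the mammary gland of 4 lactating ewes (Ovis aries), each of which gave 1 library. The titles place 2 libraries in group LH and 2 in group LL. The series text names peak lactation (PL) and late lactation (LL), with 2 ewes each, and no treatment. The abbreviation LH is not spelled out in the labels, and breed and age are not given in the sources used here.

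Lymphatic endothelium lines the vessels that return tissue fluid, proteins and leukocytes from an organ to the blood. Reelin is a secreted glycoprotein known from neuronal migration, and lymphatic endothelial cells of the mouse also make it. F8 encodes coagulation factor VIII, which endothelial cells produce, and IGFBP5 encodes a secreted binding protein of insulin-like growth factors that is prominent in the mammary gland.

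The 4 libraries held 5853, 9361, 12639 and 11033 kept cells in LH replicate 1, LH replicate 2, LL replicate 1 and LL replicate 2. RELN cells had a median of 4565, 2769, 3425 and 2386 UMIs in the same order, and other cells had 3321, 2996, 3044 and 2721. Only 774 of 20150 genes carried a symbol, so most lymphatic markers could not be looked up. Of 11 listed lymphatic markers, RELN, F8 and IGFBP5 alone had a symbol. Libraries shared 155 barcode pairs in all, and 10 of these involved a RELN cell. No shared barcode was a RELN cell in both libraries.

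The label was checked in each library against F8 and IGFBP5, and LH replicate 2 went against it. F8 was detected in 82.1% of the RELN cells of LH replicate 1, 58.5% in LL replicate 1 and 43.3% in LL replicate 2, but in 9.26% in LH replicate 2. IGFBP5 was detected in 79.5%, 56.3% and 83.5% of the RELN cells of the first 3 libraries named, and in 25.9% in LH replicate 2, against 25.8% of all other cells of that library. Neither gene was seen in 38 of 54 RELN cells of LH replicate 2 (70.4%), in none of 39 in LH replicate 1, in 86 of 455 in LL replicate 1 (18.9%) and in 22 of 194 in LL replicate 2 (11.3%).

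Free RNA and depth were checked by thinning every cell to 2000 UMIs, which left out 4, 18, 85 and 70 RELN cells of the 4 libraries as too shallow. After thinning, F8 was detected in 48.6%, 11.1%, 40.0% and 33.9% of RELN cells in LH replicate 1, LH replicate 2, LL replicate 1 and LL replicate 2. In cells with a CD3E UMI, a T cell marker, the thinned F8 share was 1.97%, 1.27%, 1.99% and 1.72%. The thinned IGFBP5 share was 54.3%, 25%, 50.5% and 82.3% of RELN cells and 1.05%, 3.17%, 6.58% and 4.02% of CD3E cells. Both genes thus stood above this background in every library, by the fewest percentage points in LH replicate 2, where 36 RELN cells were deep enough. Among all other cells of LH replicate 2 the thinned shares were 1.48% for F8 and 17.2% for IGFBP5. CD3E cells had median depths of 3496, 2892, 2904 and 2607 UMIs, and 0.265%, 0.265%, 0.984% and 0.206% of them held 2 or more RELN UMIs.

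RELN cells took a larger share of the LL libraries than of the LH libraries. The shares were 0.666% in LH replicate 1 (exact Clopper-Pearson 95% interval 0.474 to 0.910) and 0.577% in LH replicate 2 (0.434 to 0.752). They were 3.60% in LL replicate 1 (3.28 to 3.94) and 1.76% in LL replicate 2 (1.52 to 2.02). The intervals cover counting error only. The groups did not overlap, with means of 0.622% ± 0.0633 (SD, n = 2) and 2.68% ± 1.30 (SD, n = 2) and a difference of 2.06 percentage points. An exact two-sided permutation test gave p = 0.333, the smallest that 2 libraries against 2 allow. These are shares of dissociated cells, and how much each cell type was lost in dissociation was not measured. Cells with a CD3E UMI numbered 2644 of the 5853 kept cells of LH replicate 1. They numbered 756 of 9361 in LH replicate 2, 1220 of 12639 in LL replicate 1 and 970 of 11033 in LL replicate 2. Among cells with no CD3E UMI, the shares of RELN cells were 1.22%, 0.628%, 3.98% and 1.93% in the same order.

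**Figure D1:**
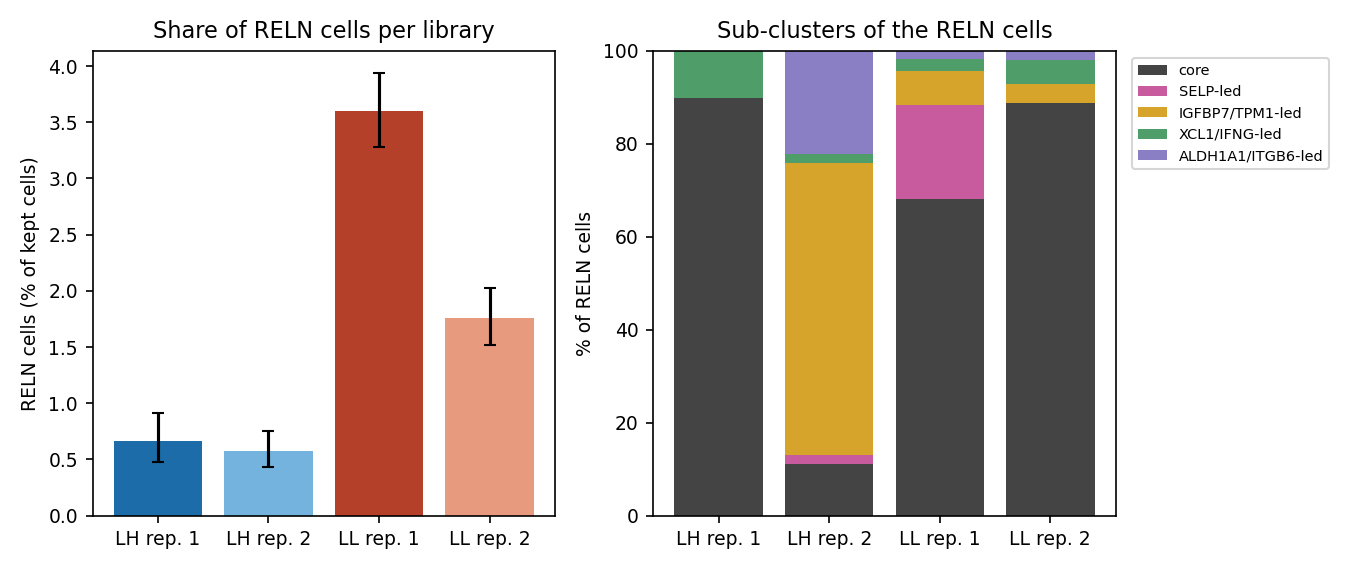
Left, RELN cells as a percentage of kept cells in each library, with exact 95% intervals as error bars. Right, the makeup of the RELN cells of each library by sub-cluster. Both LL libraries stand above both LH libraries on the left, and the core sub-clusters hold 11.1% of the RELN cells of LH replicate 2 against 68.1% to 89.7% elsewhere.

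The exclusion genes removed different numbers of cells from each library. Of 963 cells with at least 2 RELN UMIs, 77.1% met the whole rule. EDNRA, the endothelin receptor of mural and contractile cells, removed 44 of the 113 such cells of LH replicate 2 (38.9%), and 5.79% to 15% in the other libraries. Without the exclusion genes the shares were 1.03%, 1.21%, 4.38% and 2.15%, so that LH replicate 2 stood above LH replicate 1 and both stayed below the LL libraries.

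The RELN cells were not uniform. Clustering them on their own variable genes gave 9 sub-clusters, which were joined into 5 kinds by their leading genes, with thresholds chosen after the values were seen. The largest kind, called the core, held 523 cells (70.5%) and had 1777 RELN, 343 F8 and 2137 IGFBP5 UMIs as counts per 1e6 (CPM). It also carried 280 CPM of KDR, the main receptor for vascular endothelial growth factor, 456 CPM of the protease inhibitor TIMP2 and 88.7 CPM of MRC1, the mannose receptor of macrophages and lymphatic endothelium. SELP, the P-selectin of venous endothelium, was at 3.39 CPM there. The core held 35, 6, 310 and 172 cells from LH replicate 1, LH replicate 2, LL replicate 1 and LL replicate 2, or 0.598%, 0.0641%, 2.45% and 1.56% of kept cells.

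A SELP-led kind of 93 cells came almost wholly from LL replicate 1, with 92 cells there, 1 in LH replicate 2 and none in the other libraries. Its cells were deep, with a median of 10288 UMIs. SELP reached 972 CPM, ABCG2 (an exporter of small molecules in blood vessel endothelium and the lactating gland) 1205 CPM and SELE, the E-selectin that captures leukocytes, 199 CPM. RELN was at 301 CPM in it, IGFBP5 at 24.9 CPM, TIMP2 at 13.2 CPM and MRC1 at 0. It shared F8 (176 CPM), KDR (533 CPM) and CAV1 (784 CPM) with the core.

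An IGFBP7/TPM1-led kind of 75 cells held 34 cells of LH replicate 2, 33 of LL replicate 1 and 8 of LL replicate 2. Its levels of IGFBP7, a matrix protein of vessels, and TPM1, a tropomyosin of contractile filaments, were 2021 and 965 CPM, against 204 and 113 CPM in the core. An ALDH1A1/ITGB6-led kind of 24 cells, 12 of them in LH replicate 2, had 736 CPM of the retinaldehyde dehydrogenase ALDH1A1 and 215 CPM of the epithelial integrin ITGB6. An XCL1/IFNG-led kind of 27 cells had 1432 CPM of the lymphocyte chemokine XCL1. It had 1089 CPM of IFNG, which encodes interferon gamma. Every cell was without CD3E by the rule. Of other T cell markers, CD28 was at 148 CPM, CD247 at 33.6 CPM and CD3D at 20.2 CPM in it, while LCK, CTLA4 and IL2RA were at 0. Genes of the core were also present in these kinds. RELN, F8, IGFBP5, TIMP2 and MRC1 were at 2046, 162, 1005, 359 and 89.7 CPM in the ALDH1A1/ITGB6-led kind. They were at 1062, 168, 1385, 235 and 67.2 CPM in the XCL1/IFNG-led kind. In the IGFBP7/TPM1-led kind they were at 856, 98.5, 598, 153 and 23.8 CPM. Doublet scoring called 67 of the 742 RELN cells, and the part of doublets in these kinds was not tested.

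In LH replicate 2, F8 lay mostly in the 6 core cells, whereas most UMIs of RELN and IGFBP5 lay outside them. F8 was at 603 CPM in them (15 UMIs) and at 29.4 CPM in the other 48 cells (4 UMIs). IGFBP5 was at 805 CPM in the core cells (20 UMIs) and 220 CPM in the rest (30 UMIs), while TPM1 was at 121 and 1146 CPM. RELN was at 2816 CPM (70 UMIs) and 1322 CPM (180 UMIs). Results for LH replicate 2 as a whole therefore describe mostly cells outside the core.

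The number of RELN UMIs per cell is what set the rule's threshold, so the cells around it were compared. Just inside were 217 cells with 2 RELN UMIs, which had 199 CPM of F8 and 1025 CPM of IGFBP5 over all libraries. Just outside were 469 cells with 1 RELN UMI and the same exclusions, which had 121 and 541 CPM. These pooled levels come mostly from LL replicate 1. In LH replicate 2 the cells with 2 RELN UMIs were not above those with 1, with F8 at 14.8 and 17.1 CPM and IGFBP5 at 118 and 133 CPM. They held 67681 and 233546 UMIs of all genes, so their F8 levels rest on few UMIs. The 114 cells with 10 or more RELN UMIs had 346 and 1678 CPM, and their median depth of 6083 UMIs was above the 2551 of the cells with 2.

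**Figure D2:**
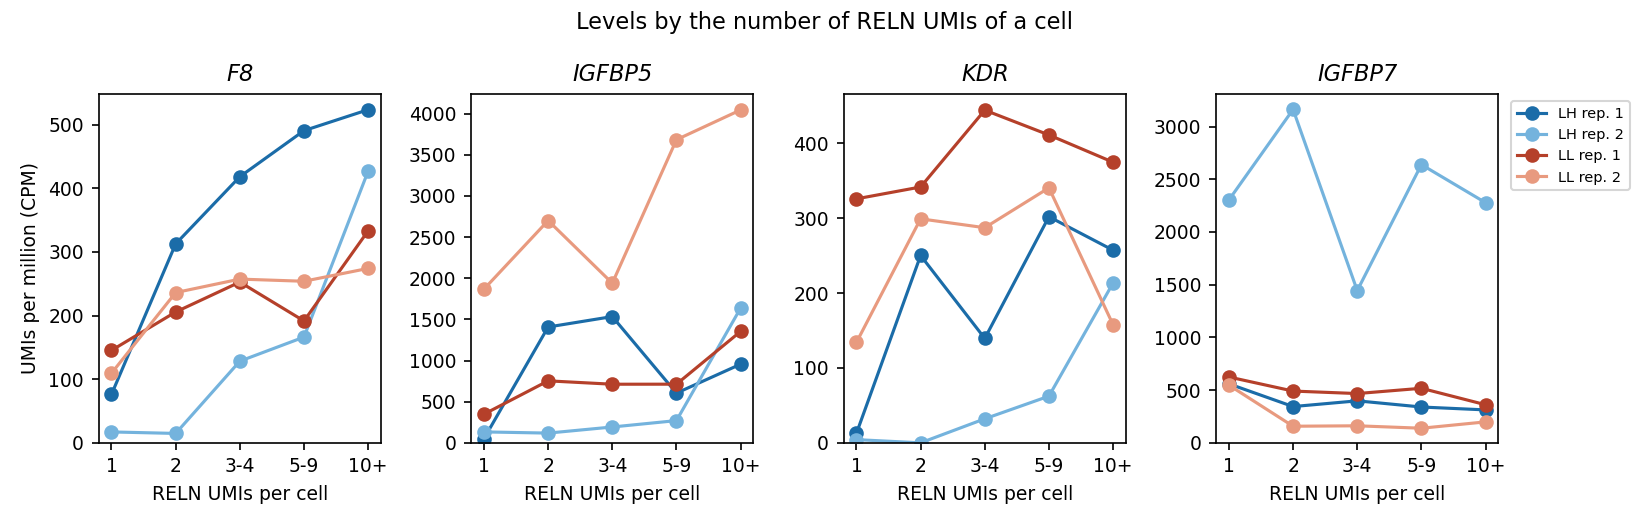
Levels of F8, IGFBP5, KDR and IGFBP7 (CPM) by the number of RELN UMIs of a cell, with 1 line per library. Cells with 1 RELN UMI lie outside the rule. In LH replicate 2 F8 is at 14.8 CPM in cells with 2 RELN UMIs and at 427 CPM in the 3 cells with 10 or more. These cells held 67681 and 14050 UMIs of all genes, so both levels rest on few F8 UMIs.

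Summed over the cells of each library, the 3 label genes had higher levels in RELN cells than in all other cells. RELN was chosen for this by the rule, and F8 and IGFBP5 came with the label, so none was tested. RELN was at 1646 CPM in the RELN cells of LH replicate 1, 1553 in LH replicate 2, 989 in LL replicate 1 and 1689 in LL replicate 2, and at 6.37 to 21.6 CPM in other cells. F8 was at 464, 118, 248 and 256 CPM, against 7.80 to 33.8 CPM in other cells. IGFBP5 was at 1112, 311, 895 and 3090 CPM, against 50.3 to 197 CPM. IGFBP5 was the most variable of these between libraries, with LL replicate 2 highest and LH replicate 2 lowest.

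RELN cells were then compared with all other kept cells, with the counts of each kind summed per library and the library as a block. The question was which genes other than those of the rule and the label set these cells apart. Of 13129 genes tested, 2105 (16%) passed an adjusted p of 0.05 in edgeR's quasi-likelihood test, 692 (5.27%) higher and 1413 (10.8%) lower in RELN cells. Among the 538 tested genes with a symbol, 28 were higher and 99 lower. Leaving out LL replicate 1 gave 1402 genes in all, and leaving out LL replicate 2 gave 1326.

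**Figure D3:**
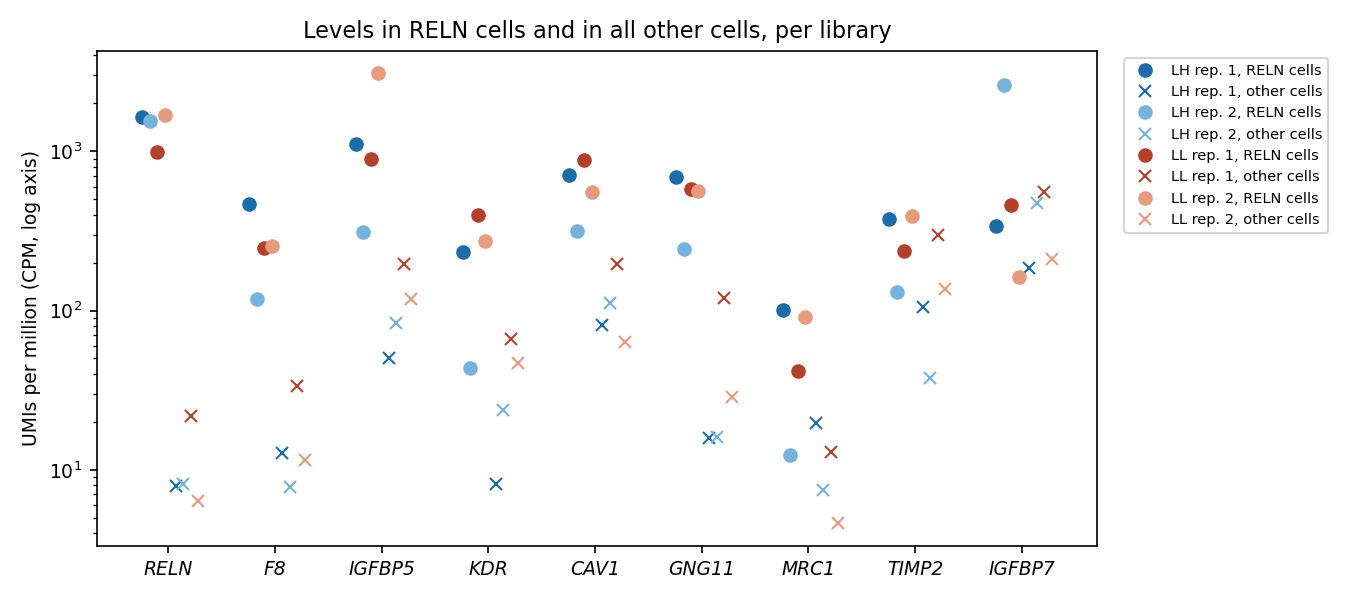
Levels of 9 genes (CPM, log axis) in RELN cells (circles) and in all other cells (crosses) of each library. RELN, F8, IGFBP5, CAV1 and GNG11 do not overlap between both kinds of cells, while IGFBP7 overlaps and is highest in the RELN cells of LH replicate 2.

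Endothelial genes were among the highest in RELN cells. GNG11, a G protein gamma subunit, was at 694 CPM in LH replicate 1, 242 in LH replicate 2, 583 in LL replicate 1 and 564 in LL replicate 2. Other cells had 15.9 to 120 CPM, so the levels did not overlap, and the log2 difference was 3.79 ± 0.43 (SE; edgeR adjusted p = 0.000306). CAV1 and CAV2 encode caveolins, which coat the membrane pits of endothelial cells. CAV1 was at 708, 317, 886 and 553 CPM against 63.8 to 195 CPM (log2 difference 2.32 ± 0.33, adjusted p = 0.000946). CAV2 was at 69, 49.7, 86.9 and 88.0 CPM against 4.15 to 16.3 CPM (2.91 ± 0.34, adjusted p = 0.000346).

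KDR was at 234, 43.5, 395 and 274 CPM in RELN cells and 8.09 to 65.8 CPM in other cells. It was higher in all 4 libraries (log2 difference 2.64 ± 0.51, adjusted p = 0.00586), though LH replicate 2 fell within the range of other cells. ABCG2 was at 101, 62.1, 655 and 97.8 CPM, with LL replicate 1 far above the rest, and its difference was 3.09 ± 0.44 (adjusted p = 0.00101). MRC1 was at 101, 12.4, 41.5 and 91.3 CPM against 4.62 to 19.6 CPM (2.34 ± 0.49, adjusted p = 0.00841). Levels of ABCG2 and KDR in LL replicate 1 include the SELP-led kind, where they were highest, and the part of that kind in these differences was not tested.

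Signalling and growth genes followed. IGFBP4, another binding protein of insulin-like growth factors, was at 43.5 to 59.8 CPM against 2.02 to 16.2 CPM (log2 difference 3.15 ± 0.44, adjusted p = 0.000921). The cyclin CCND2 (1.80 ± 0.30, adjusted p = 0.00241), the transcription factors MEF2C (1.76 ± 0.23, adjusted p = 0.000565) and KLF4 (1.68 ± 0.37, adjusted p = 0.0108) and the kinase LYN (1.61 ± 0.31, adjusted p = 0.00519) were also higher. KLF4, which responds to fluid flow in endothelium, was at 616 and 217 CPM in the LH libraries and 1079 and 1148 CPM in the LL libraries. It did not pass between LL and LH when all RELN cells were compared.

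TIMP3, an inhibitor of matrix proteases, was the most abundant of the named genes at 3016, 1627, 2318 and 2596 CPM, against 367 to 1122 CPM in other cells (log2 difference 1.76 ± 0.32, adjusted p = 0.00378). GGTA1, an enzyme that makes galactose epitopes (1.01 ± 0.25, adjusted p = 0.018), and the interferon receptor subunit IFNAR1 (0.93 ± 0.28, adjusted p = 0.0459) had the smallest differences among the 15 genes that the naming rule took. Without LL replicate 2, GGTA1 and IFNAR1 had adjusted p = 0.137 and 0.294. Both also missed the threshold without LH replicate 1 (0.0508 and 0.0642) and without LL replicate 1 (0.0607 and 0.103). Levels of 10 of these 15 genes did not overlap, and 9% of all genes tested lay wholly higher. The 15 were taken for large differences of the same sign in these data, so their share cannot be set against that of all genes.

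**Figure D4:**
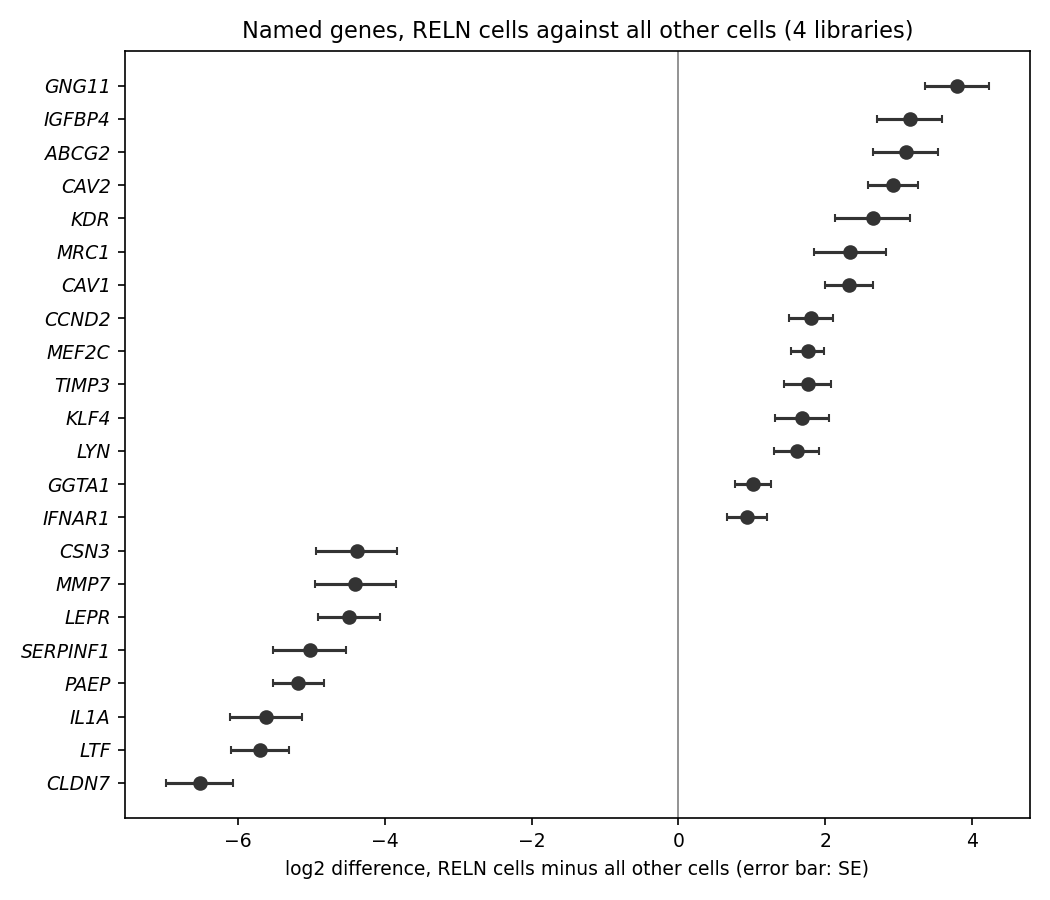
Log2 differences between RELN cells and all other cells for the named genes of that comparison (points, with the SE as error bar, 4 libraries). The named genes that were higher lie between 0.93 and 3.79 and those that were lower between -6.52 and -4.38, with CXCL8 and CLDN4 left out for their few UMIs.

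Markers of other cell types in the RELN cells were counted beside these results. The summed level of 9 macrophage and myeloid markers was 24.8 to 115 CPM in RELN cells and 141 to 690 CPM in other cells, with C1QA at 0 by rule. MRC1 made up 101 CPM of this sum in the RELN cells of LH replicate 1, 12.4 in LH replicate 2, 41.5 in LL replicate 1 and 91.3 in LL replicate 2. The sum of 10 T cell markers was 31.1 to 432 CPM against 261 to 1684 CPM, and in LH replicate 1, the highest, XCL1 made up 345 CPM. The sum of 11 luminal markers was 13.8 to 640 CPM against 1732 to 6732 CPM. The sum of 7 mural and myoepithelial markers was 336 to 563 CPM in the RELN cells of 3 libraries and 3621 CPM in LH replicate 2, where the other cells had 1193 CPM. Their part in the differences was not tested.

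The exclusions of the rule bear on this comparison, because cells with EPCAM, CD3E, C1QA or EDNRA could only be among the other cells. Against other cells that passed the same exclusions, 9 of the 15 named genes stayed higher. Among them were GNG11 (log2 difference 2.96), IGFBP4 (2.42), CAV2 (1.99), KDR (2.94), MRC1 (3.47), CCND2 (0.97), KLF4 (2.11) and LYN (1.60). ABCG2 (adjusted p = 0.0912), CAV1 (0.0701), MEF2C (0.0957), TIMP3 (0.232), GGTA1 (0.0723) and IFNAR1 (0.243) did not pass there. TIMP2 passed there alone, with a log2 difference of 2.57 (adjusted p = 0.00627) against 0.99 (adjusted p = 0.065) from all other cells.

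The 10 named lower genes included milk protein, epithelial junction and cytokine genes. LTF, which encodes the milk protein lactoferrin, was at 0, 43.5, 14.9 and 70.1 CPM in RELN cells and 383, 999, 814 and 3208 CPM in other cells (log2 difference -5.69 ± 0.40, adjusted p = 2.27e-05). PAEP, the gene of beta-lactoglobulin, was at 4.60 to 62.0 CPM against 164 to 2071 CPM (-5.17 ± 0.34, adjusted p = 2.19e-05). Against cells with the same exclusions the differences were -2.53 (adjusted p = 0.00202) and -3.03 (adjusted p = 0.000967). The cytokine gene IL1A, with 5 UMIs in all RELN cells, was lower in both comparisons, at -5.61 (adjusted p = 7.62e-05) and -4.74 (adjusted p = 0.00108). CLDN7, an epithelial tight junction gene, and MMP7, an epithelial protease gene, were also lower in both.

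The chemokine gene CXCL8 had 1 UMI in all RELN cells, and its pooled level relative to other cells was 0.00596 (95% counting interval 0.000151 to 0.0332). CLDN4, another tight junction gene, had 2 UMIs, with a ratio of 0.00497 (0.000602 to 0.0179). LEPR, the leptin receptor, did not pass against cells with the same exclusions (adjusted p = 0.0534). SERPINF1, a fibroblast gene, and the kappa-casein gene CSN3 were too low there to be tested. CSN3 was at 307 CPM in the other cells of LL replicate 1 and at 1.01 to 3.92 CPM in those of the other libraries, and without LL replicate 1 its adjusted p was 0.458.

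The listed gene groups could be followed only through their members with a symbol. Of 55 blood and pan-endothelial genes, 11 were tested and 5 were higher, namely ABCG2, KDR, CAV1, the prostaglandin transporter SLCO2A1 and the water channel AQP1, with none lower and a median log2 difference of 1.75 against -0.18 over all genes tested. These and the following counts stand against 5.27% higher and 10.8% lower over all genes tested, and against 28 higher and 99 lower of the 538 genes with a symbol. Of 47 lymphatic genes, 3 were tested, and MRC1 and KLF4 were higher. FABP4, a fatty acid binding protein of capillary endothelium, was the third, with a difference of 0.06 (adjusted p = 0.957). Among 16 tested genes of chemokines, cytokines and leukocyte adhesion, IL7 and TNFRSF1A were higher and 9 were lower (CXCL8, IL1A, CCL28, IL1B, ITGB2, TNF, IL18, ITGAL and CXCR4). Cells with CD3E, C1QA or EPCAM could only be among the other cells. The counts of this list were not repeated against cells with the same exclusions. IL7, a survival factor for lymphocytes, was at 13.8, 0, 10.9 and 9.78 CPM in RELN cells and 0.79 to 1.38 CPM in other cells, so it was not seen in LH replicate 2.

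The same shares over all genes, 5.27% higher and 10.8% lower, apply to the remaining lists. In the counts of these lists too, cells with EDNRA, EPCAM, CD3E or C1QA could only be among the other cells. Of 11 hormone and vasoactive receptor genes tested, 5 were lower (ESR2, LEPR, PTGS2, AVPR1A and THRB). AVPR1A, one of the mural and myoepithelial markers, had 0 UMIs in the core, and LEPR did not pass against cells with the same exclusions. Among 10 immediate early and dissociation genes, KLF4 was higher and BTG2 and EGR1 were lower (EGR1 adjusted p = 0.0498). In the reelin pathway, 2 of 23 listed genes were tested, the integrin ITGB1 and the kinase CDK5, and neither passed (adjusted p = 0.336 and 0.465). Of 5 tested genes of haemostasis other than F8, PLAU and PLAUR, which encode urokinase and its receptor, were lower. Of 17 genes of lipid uptake and storage, 5 were lower (ME1, SCD5, SCD, PLIN2 and ABHD5) and none higher.

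The genes with the largest differences among those higher in RELN cells had no symbol in the files. ENSOARG00000018398 was at 2818, 1254, 2258 and 4556 CPM in RELN cells and 11.4, 1.96, 56.8 and 25.5 CPM in other cells (log2 difference 7.32 ± 0.60, adjusted p = 5.59e-05). ENSOARG00000011072 was at 1931, 702, 1624 and 2069 CPM against 10.3, 1.89, 38.5 and 11.2 CPM (7.06 ± 0.48, adjusted p = 2.19e-05). Both were highest in the core, the first at 4661 CPM and the second at 2996 CPM, but neither was particular to it. They were at 3410 and 2279 CPM in the ALDH1A1/ITGB6-led kind and at 1970 and 1089 CPM in the XCL1/IFNG-led kind. The IGFBP7/TPM1-led kind had 768 and 652 CPM, and the SELP-led kind 60.3 and 22.9 CPM. In LH replicate 2, 193 of the 202 UMIs of the first gene lay in the 6 core cells.

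The nearest other cells by the rule were those with UMIs in at least 2 of SELP, SELE, KDR and ABCG2, genes of blood vessel endothelium. There were 1242 of them, and 208 also met the RELN rule (9, 1, 171 and 27 per library), which is 28.0% of RELN cells and 16.7% of the cells meeting the other rule. The 1034 that were not RELN cells numbered 7, 44, 851 and 132. LH replicate 1 was left out for having fewer than 10, so this comparison rests on 3 libraries. Of 9321 genes tested, 648 (6.95%) differed, 214 (2.3%) higher and 434 (4.66%) lower in RELN cells. The genes named as higher included TIMP2 (log2 difference 2.70 ± 0.35), IGFBP6 (2.31 ± 0.34), LYN (2.07 ± 0.34) and TIMP3 (1.95 ± 0.44). Their levels lay wholly above the comparator, as for 20.5% of all genes tested, but they were taken for large differences in these data.

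This comparator was not endothelium alone. In LH replicate 2 and LL replicate 2 it held 1395 and 3596 CPM of LTF and 83.2 and 113 CPM of KDR, and in LL replicate 1 it held 1264 CPM of LTF and 325 CPM of KDR. The 10 named lower genes were CLDN7, CLDN4, LTF, PAEP, CCL28, ITGB6, SPP1, LEPR, MMP7 and CRYAB, mostly genes of the luminal epithelium. With the exclusions of the RELN rule also applied to the comparator, 16, 632 and 46 cells were left in the 3 libraries, with KDR at 382, 474 and 431 CPM and LTF at 54.6, 29.4 and 68.9 CPM. Of 5863 genes tested there, 84 (1.43%) differed, 82 (1.4%) higher and 2 (0.0341%) lower in RELN cells. None of the 4 named lower genes that could be tested passed.

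Against the comparator with the same exclusions, TIMP2 and TIMP1, which encode inhibitors of matrix proteases, were higher in RELN cells, and TIMP3 did not pass (log2 difference 0.34 ± 0.19, adjusted p = 0.531). TIMP2 was at 130, 237 and 393 CPM in the RELN cells of LH replicate 2 and LL replicates 1 and 2, and at 9.10, 18.3 and 89.6 CPM in the comparator (log2 difference 2.93 ± 0.41, adjusted p = 0.0234). TIMP1 was at 820, 346 and 445 CPM against 209, 127 and 134 CPM (1.58 ± 0.24, adjusted p = 0.0315). Both were higher in all 3 libraries, and they were the only genes with a symbol that passed. The 2 identifiers above also passed, at 3.91 (adjusted p = 0.00981) and 4.91 (adjusted p = 0.0249). TIMP1 was not called against all other cells, nor against the comparator without these exclusions. Its level was 839 CPM in the IGFBP7/TPM1-led kind and 527 CPM in the core.

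Genes shared by vessel endothelium at large did not pass in that comparison. CAV1 was at 317, 886 and 553 CPM in RELN cells and 1293, 696 and 613 CPM in the comparator with the same exclusions (log2 difference -0.66 ± 0.45, adjusted p = 0.632). GNG11 was at 242, 583 and 564 CPM against 346, 482 and 720 CPM (-0.29 ± 0.25, adjusted p = 0.735). IGFBP6 had a difference of 1.5 ± 0.31 (adjusted p = 0.0833) and LYN one of 2.97 ± 0.58 (adjusted p = 0.0751). F8, which came with the label and was not tested, was at 118, 248 and 256 CPM against 91.0, 181 and 128 CPM. IGFBP5 was at 311, 895 and 3090 CPM against 9.10, 26.6 and 317 CPM.

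The series compares lactation stages, so LL was compared with LH within RELN cells. No gene of 5835 tested (0%) passed in edgeR's quasi-likelihood test. Before adjustment, 236 genes had p under 0.05. The alternative tool, DESeq2, likewise called 0. The 10 genes of lowest p included ABHD5, RAB28, BGN, PSMB8, SLC30A7, NFKBIA, ACACA, CD52 and GDI2. Their levels did not overlap between groups, as was so for 14.0% of all genes tested with LL higher and 18.5% with LL lower. ABHD5, an activator of fat breakdown, had levels of 96.5 and 68.3 CPM in the LH libraries and of 19.9 and 24.5 CPM in the LL libraries (log2 difference -1.71 ± 0.39, adjusted p = 0.925). NFKBIA, the inhibitor of NF-kappaB, had levels of 699 and 596 CPM in the LH libraries and of 1199 and 1273 CPM in the LL libraries (1.15 ± 0.34, adjusted p = 0.925).

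**Figure D5:**
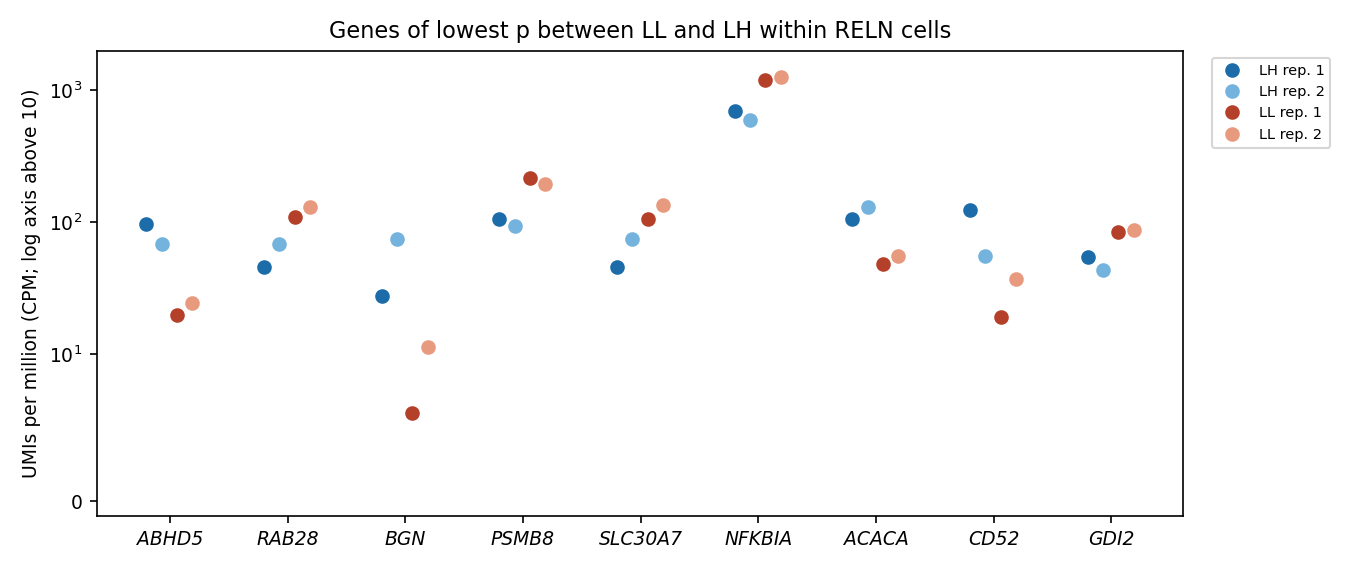
Levels in RELN cells (CPM, linear up to 10 and log above) of 9 of the 10 genes of lowest p between LL and LH, 1 point per library. LH and LL points do not overlap for any of them, and the adjusted p was 0.925 for each.

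The different makeup of LH replicate 2 touches this comparison directly, since 48 of its 54 RELN cells lay outside the core. Without LH replicate 1, which leaves LH replicate 2 alone in its group, 23 genes passed, all lower in LL. Within the core, LH replicate 2 had too few cells to enter, so LH replicate 1 alone stood against both LL libraries and was assumed to vary as they do. There 33 of 6894 genes (0.479%) passed, 23 higher and 10 lower in LL, and 5 of them had a symbol. This fit was chosen after the makeup was seen.

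Of 10 genes of the list of dissociation and immediate early response, 4 passed and were higher in the LL core, and the other 6 had adjusted p from 0.128 to 0.912. ZFP36, which destabilises cytokine transcripts, was at 359 CPM in the core of LH replicate 1 and 1506 and 1055 CPM in the LL core (log2 difference 1.94 ± 0.29, adjusted p = 0.00347). FOS was at 1603 CPM against 3108 and 3115 CPM (1.05 ± 0.18, adjusted p = 0.0101). KLF4 was at 654 CPM against 1555 and 1245 CPM (1.20 ± 0.24, adjusted p = 0.0362), and NFKBIA at 612 CPM against 1146 and 1302 CPM (1.09 ± 0.23, adjusted p = 0.0453). ABHD5 was lower, at 105 CPM against 18.8 and 19.1 CPM (-2.36 ± 0.48, adjusted p = 0.0368). The core cells of each library were spread over the core sub-clusters in different proportions. One sub-cluster was led by CDKN1A, ZFP36, NFIL3, BTG2 and KLF4, with FOS among its leading genes. It held 2 of the 35 core cells of LH replicate 1, 100 of 310 in LL replicate 1 and 31 of 172 in LL replicate 2. The sub-clusters were drawn from the same counts, and the part of this makeup in the differences was not tested. The 4 genes stand beside the share of all genes given above for this fit, which rests on LH replicate 1 alone in its group.

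The 6 core cells of LH replicate 2 were not in that fit. They had 362 CPM of ZFP36, 966 of FOS, 603 of KLF4, 563 of NFKBIA and 80.5 of ABHD5. Each level was on the side of LH replicate 1. In these 6 cells 1 UMI stood for 40.2 CPM. The levels therefore rest on few UMIs, above all for ABHD5, and were not tested. In other cells of the 4 libraries FOS had 2472 and 5613 CPM in the LH libraries and 4411 and 4270 CPM in the LL libraries, and ZFP36 had 920 and 1558 CPM in the former and 1959 and 1943 CPM in the latter. Among other cells both genes were lowest in LH replicate 1, and FOS was highest in LH replicate 2, whose core cells had the lowest FOS. The part of the library-wide level in the result was not tested.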

How the data were processed

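The deposited values are raw UMI counts for each gene in each barcode. They came from Cell Ranger, given as 5.0.1 in the submitters' processing notes and as 7.2.0 per the file headers; the genome build is not given in the sources used here. Of 20150 genes, 774 had a symbol; no identifier matched the reference table of RefSeq genes. Barcodes with over 20% mitochondrial UMIs were left out (360 of 39246), and no other filter was applied. Groups and replicate numbers came from the titles. Each library is 1 ewe.

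Counts were summed per library and kind of cell (at least 10 cells) and tested with edgeR 4.0.16 (quasi-likelihood, TMM, filterByExpr with a minimum count of 10, Benjamini-Hochberg adjusted p under 0.05 over all genes tested), with the library as a block where both kinds came from the same ewes. Genes of the rule, the label and, where used, the comparator were not tested between kinds of cells. CPM values use unscaled totals of those cells; log2 differences come from the fits. DESeq2 1.42.0 was an alternative. Named genes needed a symbol, a call, the same sign in every library and at least 50 CPM, taking the 15 highest and 10 lowest; for LL against LH, where none passed, the 10 of lowest p with a symbol and at least 50 CPM were taken. Genes named outside this rule, such as list members and genes of the sub-clusters, were chosen after their values were seen. Some genes that the rule took are not reported here. Sub-clusters used Leiden at resolution 0.8 (scanpy 1.11.5). Doublets were scored against simulated ones and kept. The procedure was tested on simulated data. The members and gene lists were chosen with earlier results of these data known. With 2 ewes per stage and 93 RELN cells in LH, precision is that of the spread between ewes.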

Additional observations from a re-analysis of the deposited data

Results flagged for a closer look

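For 6 genes, RELN cells lay on one side of the other cells in both LH libraries and on the opposite side in both LL libraries. This change of sign was not tested. Each gene is given by its log2 difference between LL and LH within RELN cells, none of which passed (edgeR adjusted p = 0.925 for each). NFKBIA had a difference of 1.15, RAB28, a small GTPase of cilia, one of 1.32, and the zinc transporter SLC30A7 one of 1.25. ACACA, which encodes the acetyl-CoA carboxylase of fatty acid synthesis, had -0.96. IGFBP6 had -1.03, with 602 and 615 CPM in the LH libraries and 290 and 214 CPM in the LL libraries. BGN, the matrix proteoglycan biglycan, had -2.40, with 27.6 and 74.5 CPM in the former and 5.97 and 11.4 CPM in the latter.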

How the results depend on the processing

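The share of RELN cells stayed higher in LL under every alternative run, by 1.46 to 2.77 percentage points, and by 1.14 to 2.98 without each library in turn. Against all other cells, the count of genes that differed was 1326 to 3018 without each library in turn. Against the SELP, SELE, KDR and ABCG2 cells the 648 genes became 1694 with no filter on low counts and 421 with no library block. They became 952 without the cells meeting both rules, a setting not planned beforehand, and 84 with the same exclusions in the comparator. In that last comparison CRYAB (1.56), PAEP (0.053) and SPP1 (0.39) turned to a positive log2 difference, none of them past the threshold. The named higher genes IGFBP6, LYN and TIMP3 lost their call there, with adjusted p of 0.0833, 0.0751 and 0.531. Leaving out single libraries also ended the calls of LYN (LL replicate 1, adjusted p = 0.0556) and TIMP3 (LL replicate 2, 0.207; LH replicate 2, 0.0981). DESeq2 kept the calls of all 25 named genes of the first comparison and all 15 of the second.

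Between LL and LH, 221 genes passed with no filter on low counts, 33 within the core, and 0 to 23 without each library in turn. The cause was not tested. Whether replicate numbers paired the ewes could not be decided. The correlation of deviations from the group mean was -0.24 for both pairs. Each group held only its replicate pair, whose deviations mirror each other, so both pairs give the same value by construction. The replicate block gave 0 genes, and so did the crossed replicate block. DESeq2 size factors moved the median log2 difference between LL and LH by -0.13. LH held 39 and 54 RELN cells, and the size of difference that this number could show was not tested.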
